A study of Caenorhabditis elegans with 7 samples.

Results

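The C-type lectin family of *C. elegans* was examined in whole worms of the N2 strain, the Bristol wild type, treated with tomatidine, a steroidal compound of green tomatoes. Members were all genes whose symbol is *clec* followed by a number, of which the RefSeq gene table held 264, 239 of them annotated as protein coding and 25 as pseudogenes. Of these, 241 had at least 1 array probe matched to them and 23 had none. Testing was limited to genes with a probe that the scanner software itself called well above background on at least 3 of the 7 arrays. This left 120 C-type lectin genes among the 14224 genes tested, and 121 members with a probe were below that filter. Tomatidine-treated worms received 25 µM from the L4 larval stage and were collected on adult day 7, giving 3 arrays. Vehicle worms received the solvent, DMSO, over the same period and gave 4 arrays. The study states 4 independent experiments and that one hybridisation combined the separate preparations in equal amounts; the array concerned is not named in the sources used here. The arrays may therefore not all be separate cultures, and p-values measure the spread between these arrays only.

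C-type lectins carry a C-type lectin-like domain, a fold first described in proteins that bind sugars in a calcium-dependent way. In mammals the family includes collectins and receptors that recognise the surface sugars of microbes. In *C. elegans* the family is large, many members are predicted to be secreted, and several are made in the intestine. Many *clec* genes are known to change in transcript level when worms feed on bacterial pathogens, in sets that differ between pathogens, and *clec-39* and *clec-49* have been tied to defence against *Serratia marcescens*. Most other members have no described function, and for these only the gene and its values are given below.

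Each array measured the worms' RNA in 1 colour, and values are given as normalized log2 intensity, the log2 of the processed spot signal placed on a common mean and spread for all arrays. A difference of 1 unit is a 2-fold change on this scale, and intensities of different genes are not compared because each comes from its own probe. Probes well above background made up 53.0% to 69.7% of all probes on the 7 arrays. The net signal of negative control spots was 237.2 on tomatidine array 1 and 424.4 on vehicle array 2, against 75.1 to 114.4 on the other 5 arrays. The scanner software's multiplicative detrending fit had a value of 0 on vehicle array 2, against 0.149 to 0.175 on the other arrays. Whether that had a part in the values of vehicle 2 was not tested. A tag in the sample names is shared by tomatidine 1 with vehicle 2, tomatidine 2 with vehicle 3 and tomatidine 3 with vehicle 4. Arrays that share a tag deviated together, though tomatidine 2 did so more with vehicle 1 than with vehicle 3. Vehicle 1 had a tag of its own. Slide 1 held tomatidine 1 with vehicle 1, 2 and 3, and slide 2 held tomatidine 2 and 3 with vehicle 4. In RNA from whole worms, fewer cells of a type and less RNA per cell cannot be told apart.

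The comparison of tomatidine with vehicle asks which transcripts differ in treated worms at adult day 7. None of the 120 C-type lectin genes passed an adjusted p of 0.05 in either direction (limma with Benjamini-Hochberg adjustment over all 14224 genes), where 0.0773% of all genes tested were called higher and 0.0% lower. Without adjustment, 7 members had a p under 0.05 and higher values in tomatidine-treated worms, and 0 had lower values at that threshold. Among all genes tested the shares at that threshold were 0.752% higher and 0.471% lower, and the 7 members made up 5.83% of the family's tested genes. For 4 members, *clec-232*, *clec-233*, *clec-83* and *clec-49*, every tomatidine array lay above every vehicle array, a share of 3.33% where 0.816% of all genes tested did so. For 0 members did every tomatidine array lie below every vehicle array, where 1.27% of all genes tested did so. These shares are a description of the family, and no test was run on the family as a list.

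The member with the smallest p was *clec-232* (F36G9.11, chromosome V). Its values were 7.82, 7.80 and 7.59 on the tomatidine arrays, against 6.02, 5.32, 5.17 and 7.19 on vehicle arrays 1 to 4. The 3 tomatidine arrays lay close together, vehicle 4 came nearest to them, and the groups did not overlap. The means were 7.74 ± 0.12 in tomatidine-treated worms (SD, n = 3) and 5.92 ± 0.92 in vehicle worms (SD, n = 4). The log2 fold change was 1.81 (standard error 0.44), or 3.51-fold, with an unadjusted p of 0.00101 and an adjusted p of 0.845. With normexp background correction and quantile normalization in place of the z-scores, the log2 fold change was 0.63 (standard error 0.16). Its probe passed the background call on all 3 tomatidine arrays but on only 2 of the 4 vehicle arrays, so that the vehicle mean rests partly on signals near the array background. With the name tags as a block, which leaves vehicle 1 without a partner, *clec-232* had a log2 fold change of 1.84 and an adjusted p of 0.0430, the only member called (0.162% of all genes tested were called higher in that fit). In the same fit 12 members were higher at an unadjusted p under 0.05, where 2.56% of all genes tested were, and 0 were lower, where 1.5% were. Without vehicle 4 the log2 fold change was 2.23 and the adjusted p 0.0486. With the title numbers as a block in place of the tags, which leaves vehicle 4 without a partner, the log2 fold change was also 2.23 (standard error 0.55). There *clec-232* was the only member called (adjusted p = 0.0237, 0.197% of all genes tested called higher). In that fit 10 members were higher at an unadjusted p under 0.05, where 1.34% of all genes tested were higher and 0.38% lower. The p-values of that fit were those of a normal distribution, with no allowance for the small number of arrays. Deviations of arrays that share a title number correlated at -0.53, -0.45 and -0.33, so this block does not describe a pairing of the arrays. The differences within the tag pairs were 2.50, 2.63 and 0.40, and those within slide 1 and slide 2 were 2.32 and 0.50.

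*clec-83* (Y54G2A.14, chromosome IV), a member of the pathogen-response list described below, had 12.64, 12.43 and 12.06 on the tomatidine arrays, against 11.45, 11.34, 11.71 and 12.02 on the vehicle arrays. Every tomatidine array was above every vehicle array, though tomatidine 3 exceeded vehicle 4, which shares its tag, by only 0.05. The log2 fold change was 0.75 (standard error 0.21, 1.68-fold), with an unadjusted p of 0.00361 that stayed under 0.05 in all 20 alternative settings and an adjusted p of 0.9998. In *clec-233* (F21H7.4, chromosome V) the tomatidine arrays read 7.11, 7.63 and 7.18 and the vehicle arrays 6.37, 5.99, 6.59 and 6.89. The groups did not overlap, and vehicle 2 was the lowest array. The log2 fold change of *clec-233* was 0.85 (standard error 0.33, 1.80-fold) at an unadjusted p of 0.0218. *clec-49* (W04E12.6, chromosome V) had the tightest values of the 4 that did not overlap, with 10.58, 10.60 and 10.51 on the tomatidine arrays, against 9.94, 10.37, 10.18 and 10.28 on the vehicle arrays. Vehicle 1 was the lowest array and the closest approach was vehicle 2. Its log2 fold change was 0.37 (standard error 0.19) with an unadjusted p of 0.0725, so that it did not pass even the unadjusted threshold.

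The other 4 members at an unadjusted p under 0.05 had groups that overlapped. *clec-150* (R06B10.3, chromosome III) had 13.17, 13.14 and 12.96 on the tomatidine arrays, against 12.36, 12.29, 12.59 and 12.98 on the vehicle arrays. Here the only overlap was between tomatidine 3 and vehicle 4, which share a tag, and they differed by 0.02. *clec-50* (W04E12.8, chromosome V) had 15.20, 14.36 and 14.92 in tomatidine-treated worms, against 13.91, 14.22, 14.18 and 14.54 in vehicle worms, with tomatidine 2 below vehicle 4. *clec-51* (B0218.6, chromosome IV) had 7.91, 8.29 and 8.57 in tomatidine-treated worms, against 7.22, 7.60, 7.63 and 7.97 in vehicle worms, with tomatidine 1 below vehicle 4 by 0.07. The 3 kept probes of *clec-51* gave log2 fold changes between 0.65 and 1.32. *clec-47* (T09F5.9, chromosome V) spread more within each group, with 10.49, 9.06 and 9.82 on the tomatidine arrays, against 8.18, 9.52, 8.65 and 9.31 on the vehicle arrays. Tomatidine 2 lay below vehicle 2 and vehicle 4, although tomatidine exceeded vehicle in each of the 3 tag pairs. The log2 fold changes were 0.53 for *clec-150* (standard error 0.20, unadjusted p = 0.0199), 0.62 for *clec-50* (standard error 0.24, unadjusted p = 0.0231), 0.65 for *clec-51* (standard error 0.28, unadjusted p = 0.0374) and 0.88 for *clec-47* (standard error 0.36, unadjusted p = 0.0281). Of the 20 alternatives, *clec-47* and *clec-51* kept an unadjusted p under 0.05 in 12 each, *clec-150* and *clec-50* in 15 each and *clec-233* in 16. With normexp and quantile normalization the log2 fold change was 0.51 for *clec-47*, 0.27 for *clec-51*, 0.35 for *clec-233* and 0.19 for *clec-49*, and without tomatidine 1 that of *clec-47* was 0.52. With the slide as a block, 4 members stayed under an unadjusted p of 0.05, namely *clec-232*, *clec-83*, *clec-47* and *clec-50*, all higher, where 0.576% of all genes tested were higher and 1.3% lower. None of the members passed the adjusted threshold with that block, where 0.0562% of all genes tested were higher.

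**Figure D1:**
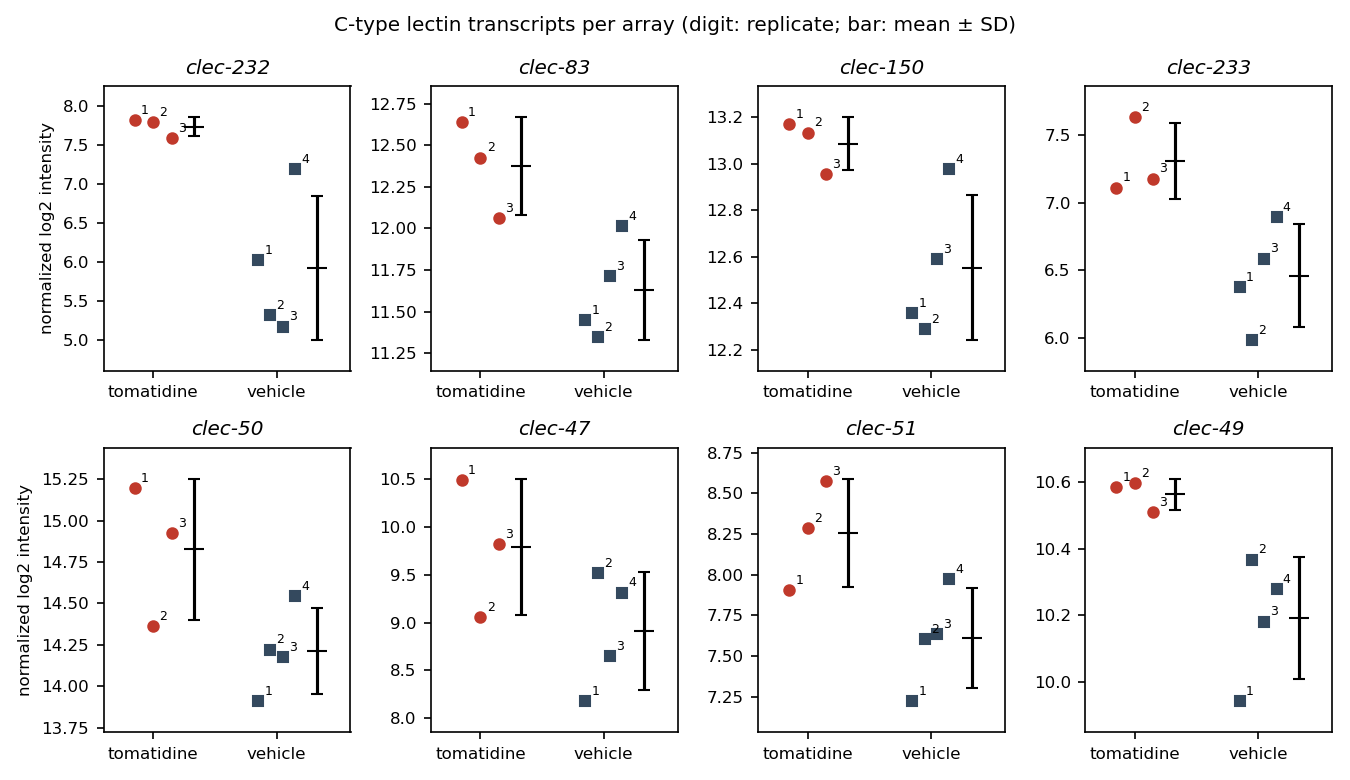
Normalized log2 intensity (vertical axis, with its own range in each panel that does not start at 0) of the 7 C-type lectin genes at an unadjusted p under 0.05 and of *clec-49*, on the 3 tomatidine arrays (circles, left) and the 4 vehicle arrays (squares, right). Digits give the replicate and bars the mean ± SD. Vehicle 4 is the highest vehicle array in 6 of the 8 panels, and the groups are apart in *clec-232*, *clec-83*, *clec-233* and *clec-49*.

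Across the 120 tested members the median log2 fold change was 0.14 (quartiles -0.03 and 0.34, from -0.46 for *clec-165* to 1.81 for *clec-232*), and over all 14224 genes it was -0.03. The fold change was above 0 for 85 members, or 70.8%, where 45.3% of all genes tested were above 0. The direction of the median held under every scaling tried, and the family's median exceeded that of all genes by 0.07 to 0.28 over the 20 alternatives. With the slide as a block, however, the share of members above 0 was 50.8%, where 39.6% of all genes were above 0, and the family's median was 0.03. The 78 members well above background on all 7 arrays had a median of 0.17, with 58 above 0. The 42 members that passed on 3 to 6 arrays had a median of 0.12, with 27 above 0, and over all genes that passed on 3 to 6 arrays the median was 0.09. The spread between arrays was wider in the family than elsewhere, with a median SD of 0.42 in tomatidine-treated worms and 0.46 in vehicle worms, where the medians over all genes were 0.29 and 0.35.

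**Figure D2:**
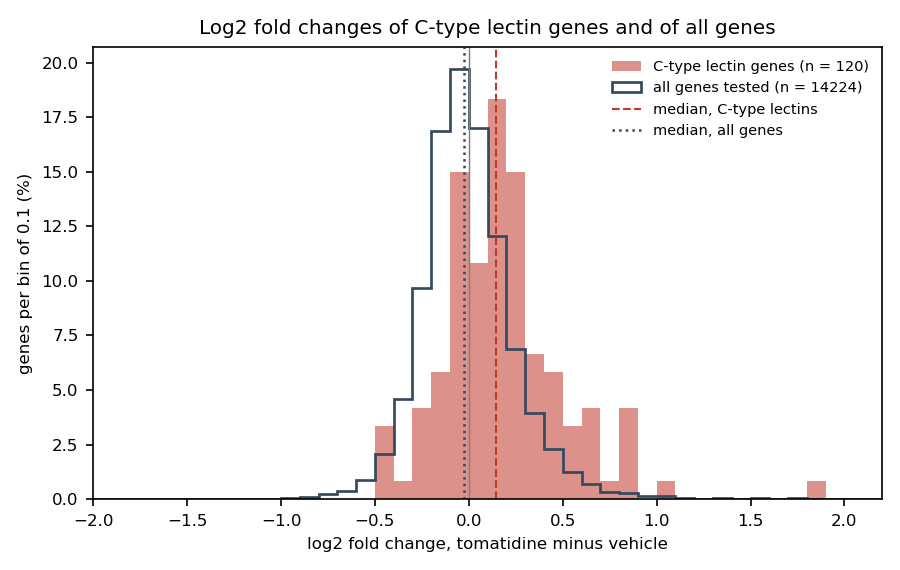
Share of genes (percent, vertical axis) per bin of 0.1 in log2 fold change, tomatidine minus vehicle (horizontal axis), for the 120 C-type lectin genes tested (filled) and all 14224 genes tested (outline). The dashed line marks the family's median of 0.14 and the dotted line the median of all genes, -0.03.

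The arrays of one group did not all read alike for these genes. With each gene centred on its own mean, the mean over the 120 tested members was -0.11, 0.14 and 0.29 on tomatidine arrays 1 to 3, against -0.02, -0.30, -0.30 and 0.30 on vehicle arrays 1 to 4. Vehicle 4 was thus as high as the highest tomatidine array, and vehicle 2 and 3 were the lowest. The 78 members measured on all 7 arrays gave 0.04, 0.06 and 0.24 on the tomatidine arrays, against -0.21, -0.05, -0.29 and 0.21 on the vehicle arrays. The highest of the 7 values was on a tomatidine array for 67 members, or 55.8%, where this held for 33.5% of all genes tested. The lowest value was on a vehicle array for 90 members, or 75%, where this held for 61.1% of all genes tested. Tomatidine 3 alone held the highest value for 26 members, and vehicle 3 the lowest value for 32.

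**Figure D3:**
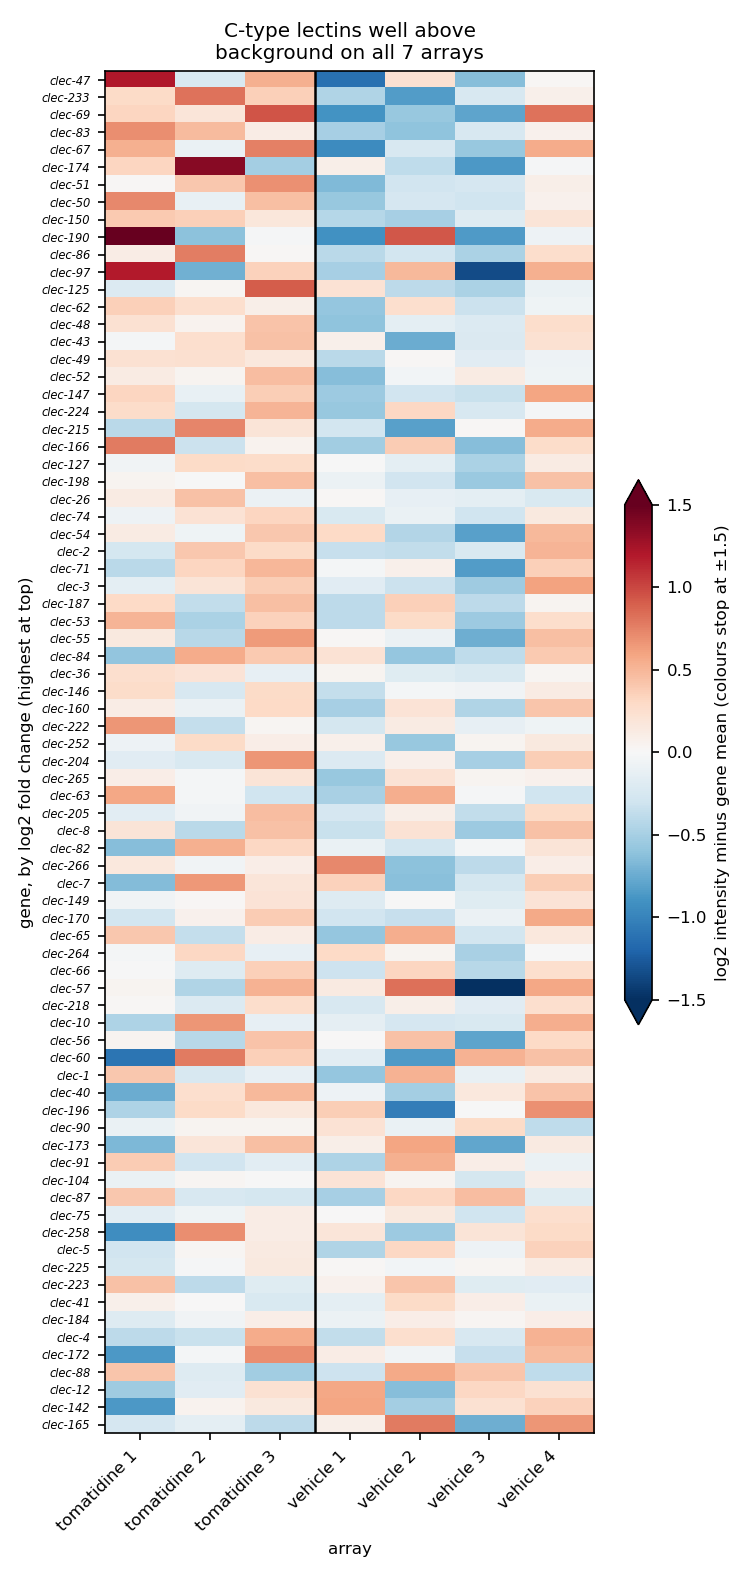
Normalized log2 intensity minus the gene's mean over 7 arrays (colour, red above and blue below, colours ending at 1.5 in each direction) for the 78 C-type lectin genes well above background on all 7 arrays. Columns are the 3 tomatidine arrays and then the 4 vehicle arrays, rows are ordered by log2 fold change from *clec-47* at 0.88 to *clec-165* at -0.46, and columns such as vehicle 3 (mean -0.29) and vehicle 4 (mean 0.21) differ within the vehicle group.

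Within the pairs of arrays that share a tag, the 120 members had median differences of 0.11 between tomatidine 1 and vehicle 2, 0.38 between tomatidine 2 and vehicle 3, and -0.02 between tomatidine 3 and vehicle 4. Over all genes the same pairs had medians of -0.09, 0.03 and -0.00. The family was thus above the other genes in the first 2 pairs and level with them in the third. In all 3 pairs 24 members, or 20%, were higher with tomatidine, where 11.1% of all genes were, and 7 members, or 5.83%, were lower, where 12.6% of all genes were. By slide, the median over the members was 0.10 on slide 1 and -0.09 on slide 2, and over all genes -0.06 and -0.08. Whether slide, tag or background had a part in these values was not tested.

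**Figure D4:**
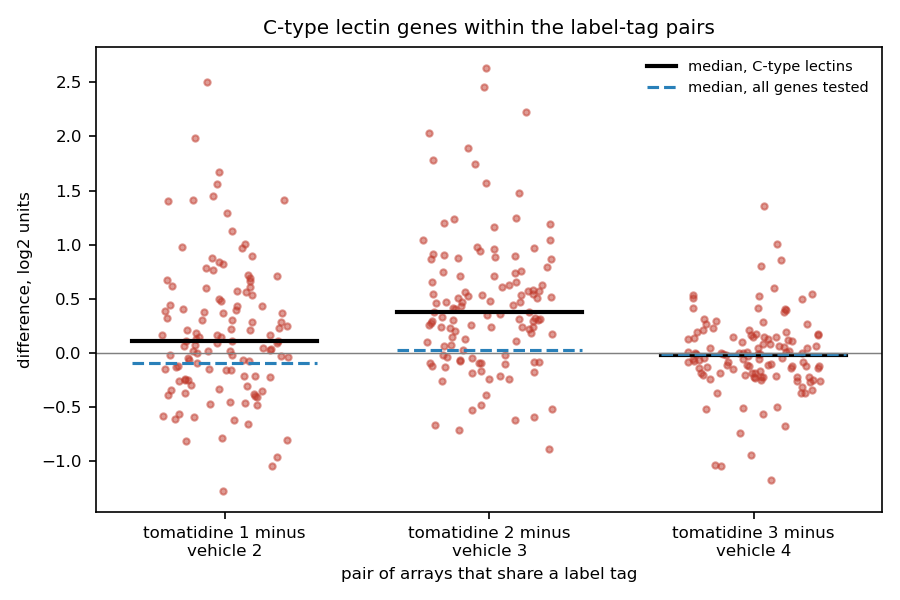
Difference in normalized log2 intensity, tomatidine array minus the vehicle array that shares its tag (vertical axis), for the 120 tested C-type lectin genes (points) in each of the 3 pairs. Solid lines are the family's medians of 0.11, 0.38 and -0.02, and dashed lines the medians over all genes tested of -0.09, 0.03 and -0.00.

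Arrays that share a tag were often extreme together, though tomatidine 2 and vehicle 3 less often than the other pairs. Of the 78 members measured on all 7 arrays, tomatidine 3 and vehicle 4 were the 2 highest arrays for 20 (25.6%, against 14.2% of all genes so measured) and the 2 lowest for 1, *clec-88* (1.28%, against 8.77%). Tomatidine 2 and vehicle 3 were the 2 highest for 1 (1.28%, against 3.35%) and the 2 lowest for 7 (8.97%, against 8.59%). Tomatidine 1 and vehicle 2 were the 2 highest for 8 (10.3%, against 13.1%) and the 2 lowest for 13 (16.7%, against 12% of all genes). The last of these was plain in *clec-60* (ZK666.6, chromosome II), an intestinal gene known to be induced by Gram-positive pathogens, which read 9.89, 11.77 and 11.34 on the tomatidine arrays, against 10.83, 10.14, 11.51 and 11.42 on the vehicle arrays. Tomatidine 1 and vehicle 2 were its 2 lowest arrays and its log2 fold change was 0.03 (standard error 0.40). *clec-190* (M199.4, chromosome IV) showed the reverse, with 9.31, 7.16 and 7.75 on the tomatidine arrays, against 6.86, 8.70, 6.92 and 7.69 on the vehicle arrays. Its 2 highest arrays were tomatidine 1 and vehicle 2, and the log2 fold change of 0.53 had a standard error of 0.50.

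Other members with a wide range over the 7 arrays owed it to 1 or 2 arrays. *clec-57* (F08H9.6, chromosome V) had 7.60, 7.10 and 8.08 in tomatidine-treated worms, against 7.69, 8.38, 5.90 and 8.13 in vehicle worms, where vehicle 3 stood low. *clec-97* (ZK39.6, chromosome I) had 11.55, 9.64 and 10.70 in tomatidine-treated worms, against 9.86, 10.84, 9.01 and 10.89 in vehicle worms, with tomatidine 1 highest and vehicle 3 lowest. *clec-174* (Y46C8AL.2, chromosome IV) had 9.50, 10.54 and 8.67 in tomatidine-treated worms, against 9.27, 8.81, 8.32 and 9.17 in vehicle worms. In *clec-174* tomatidine 2 was more than 1 unit above every other array, while tomatidine 3 lay below 3 of the 4 vehicle arrays. None of the 3 passed an unadjusted p of 0.05.

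Among the members measured on all 7 arrays, none of the 4 with the lowest log2 fold changes passed an unadjusted p of 0.05. *clec-165* (F38A1.10, chromosome IV) had 7.13, 7.23 and 6.99 on the tomatidine arrays, against 7.46, 8.16, 6.65 and 8.04 on the vehicle arrays, a log2 fold change of -0.46 (standard error 0.36). The tomatidine arrays were close together and lay within the range of the vehicle arrays, of which vehicle 3 was the lowest. *clec-142* (K01C8.8, chromosome II) had 6.24, 7.15 and 7.25 on the tomatidine arrays, against 7.70, 6.59, 7.32 and 7.45 on the vehicle arrays, with tomatidine 1 lowest and a log2 fold change of -0.38 (standard error 0.36). *clec-12* (T27F6.2, chromosome I) and *clec-88* (K10B2.3, chromosome II) followed at -0.28 (standard error 0.34) and -0.18 (standard error 0.33).

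A list of 19 C-type lectin genes reported to respond to bacterial pathogens was examined next. Of these, 15 were tested, *clec-39*, *clec-70* and *clec-186* were below the filter, and *clec-85* had no matched probe. None passed the adjusted threshold and 1, *clec-83*, was higher at an unadjusted p under 0.05, where 0.752% of all genes tested were. The fold change was above 0 for 11 of the 15, where 45.3% of all genes tested were above 0. The list's median was 0.12, close to that of the whole family. On the centred scale the list averaged -0.29, 0.32 and 0.32 on the tomatidine arrays, against -0.14, -0.26, -0.16 and 0.21 on the vehicle arrays, with tomatidine 1 the lowest of all 7.

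Beside *clec-83* and *clec-49*, the list members with the smallest p were *clec-67*, *clec-86* and *clec-52*. *clec-67* (F56D6.2, chromosome IV) had 8.57, 7.93 and 8.78 on the tomatidine arrays, against 7.08, 7.78, 7.47 and 8.59 on the vehicle arrays. Only vehicle 4 reached the tomatidine range, and the log2 fold change was 0.70 (standard error 0.35, unadjusted p = 0.0657). *clec-86* (C54D1.2, chromosome X) had 8.38, 9.03 and 8.28 on the tomatidine arrays, against 7.87, 8.00, 7.79 and 8.54 on the vehicle arrays. Again vehicle 4 alone reached into the tomatidine range, and the log2 fold change was 0.52 (standard error 0.28, unadjusted p = 0.0869). *clec-52* (B0218.8, chromosome IV), which lies close to *clec-51*, had 13.19, 13.11 and 13.54 on the tomatidine arrays, against 12.43, 13.03, 13.20 and 13.01 on the vehicle arrays. Vehicle 3 overlapped the tomatidine arrays, and the log2 fold change was 0.36 (standard error 0.22).

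For *clec-41* and *clec-42*, tied to defence against *Bacillus thuringiensis*, the values were of another kind. *clec-41* (B0365.6, chromosome V) varied little, with 14.47, 14.39 and 14.16 on the tomatidine arrays, against 14.25, 14.67, 14.48 and 14.29 on the vehicle arrays. The groups overlapped throughout, and the log2 fold change was -0.08 (standard error 0.20). *clec-42* (F16H6.1, chromosome V) was well above background on only 3 arrays and read 4.28, 6.09 and 4.19 with tomatidine, against 5.45, 3.46, 5.47 and 4.25 with vehicle. It was high on tomatidine 2, vehicle 1 and vehicle 3, and the log2 fold change of 0.20 had a standard error of 0.63. The other list members, *clec-4*, *clec-17*, *clec-61*, *clec-66*, *clec-71*, *clec-82* and *clec-172*, had log2 fold changes between -0.11 and 0.25.

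C-type lectin genes lie in clusters, and 46.2% of the 264 fell into 24 runs of at least 3 members with at most 2 other genes between neighbours, by their order in the RefSeq table. Of the genes in runs 50 were tested, and 39 of these had a fold change above 0, with a median of 0.20. Of the 70 tested members outside the runs 46 were above 0, with a median of 0.12, and 6 of the 7 members at an unadjusted p under 0.05 lay there. *clec-83*, the remaining one, lies in a run with *clec-82*, *clec-84* and *clec-85*.

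The run on chromosome IV from *clec-67* to *clec-79* held 13 genes, 8 of them tested. Their log2 fold changes ran from -0.16 for *clec-76* to 0.84 for *clec-69*, with 6 above 0 and a median of 0.34, and 0 passed an unadjusted p of 0.05. *clec-69* (F56D6.15), annotated as a pseudogene, had 7.51, 7.36 and 8.13 on the tomatidine arrays, against 6.29, 6.62, 6.40 and 8.00 on the vehicle arrays. It was low on vehicle 1, 2 and 3 and high on vehicle 4, as were *clec-67* and, less clearly, *clec-74*. *clec-74* (Y46C8AL.8) had 7.87, 8.17 and 8.28 with tomatidine, against 7.72, 7.85, 7.65 and 8.10 with vehicle, a log2 fold change of 0.27 (standard error 0.26). *clec-71* and *clec-73* had log2 fold changes of 0.25 and 0.41 with standard errors of 0.35 and 0.45, and *clec-75* was at -0.06. Probe sequences were not used here, and near-identical neighbours may share signal.

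The run on chromosome V from *clec-40* to *clec-33* held 15 genes, of which 8 were tested and 3 were well above background on all 7 arrays. Their log2 fold changes ran from -0.46 for *clec-30*, an annotated pseudogene, to 0.55 for *clec-25*, with 5 above 0 and a median of 0.15. *clec-26* (T20B3.12) had 6.90, 7.21 and 6.69 with tomatidine, against 6.79, 6.65, 6.63 and 6.54 with vehicle, and *clec-36* (T20B3.16) had 7.98, 7.94 and 7.60 with tomatidine, against 7.77, 7.55, 7.50 and 7.75 with vehicle. Both overlapped only through tomatidine 3, and neither fold change, 0.28 and 0.20, exceeded its standard error. *clec-40*, the third gene measured on all arrays, had a log2 fold change of -0.00. In the smaller runs, all 5 tested genes of the *clec-54* to *clec-57* run on chromosome V were above 0, from 0.03 to 0.27, and so were all 4 of the *clec-62* to *clec-66* run on chromosome II, from 0.09 to 0.41.

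**Figure D5:**
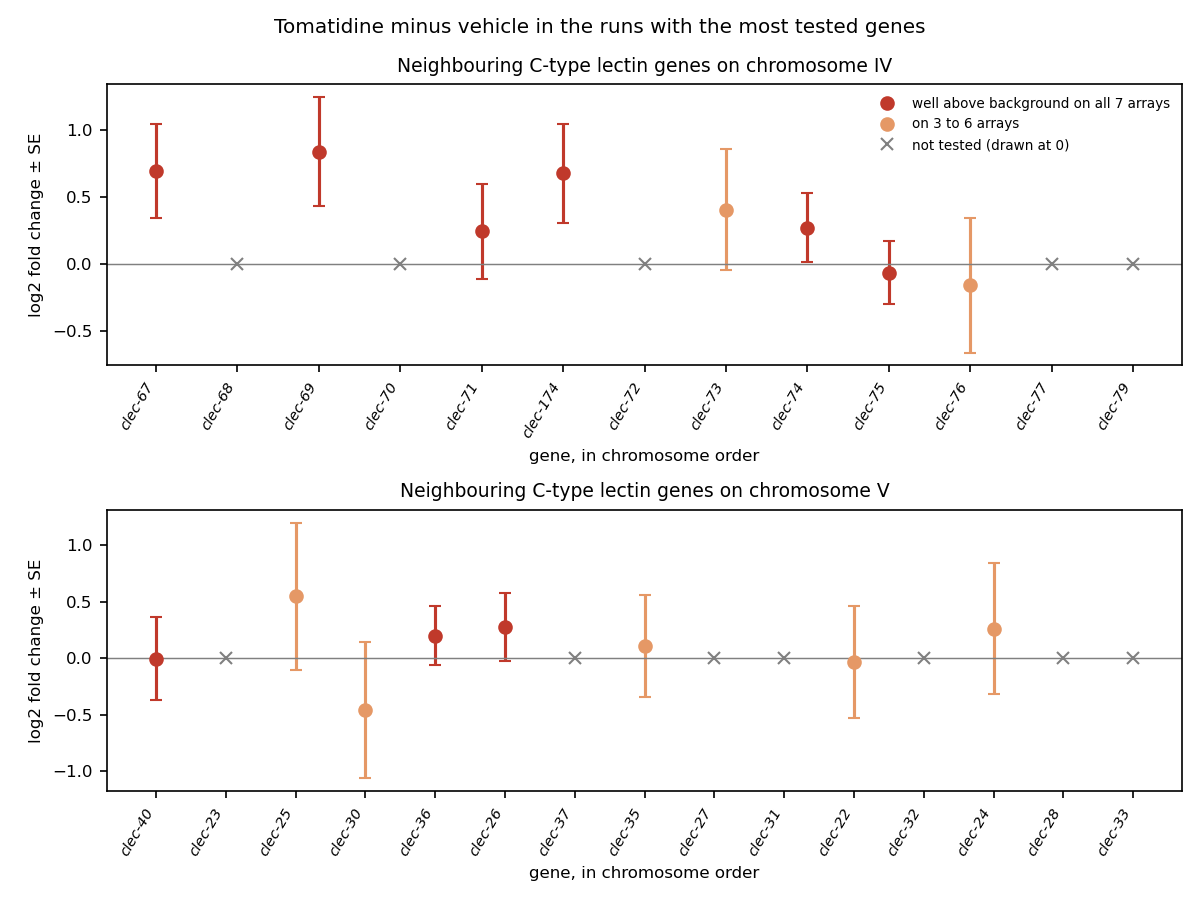
Log2 fold change, tomatidine minus vehicle, with its standard error (vertical axis) for the genes of 2 runs of neighbouring C-type lectin genes, in chromosome order (horizontal axis, not to scale). Dark points were well above background on all 7 arrays, light points on 3 to 6 arrays, and crosses at 0 mark genes that were not tested. On chromosome IV 6 of 8 tested genes lie above 0 and on chromosome V 5 of 8.

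By chromosome, the tested members numbered 12 on I, 27 on II, 6 on III, 32 on IV, 40 on V and 3 on X. Their median log2 fold changes were -0.03 on I, 0.18 on II, 0.16 on III, 0.21 on IV, 0.15 on V and 0.15 on X. Chromosome I, which carries *clec-97* and *clec-12*, had 5 of 12 tested members above 0, and on each other chromosome more members were above 0 than below. Of the 26 members with several kept probes, 9 had probes on both sides of 0. Only in 1 of these, *clec-170*, did the probes span more than 0.5, from -0.25 to 0.75, so that its log2 fold change of 0.10 depends on the probe chosen.

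Members near background differed between arrays of the same group. For the 42 members that passed on 3 to 6 arrays, the centred mean was -0.39, 0.30 and 0.38 on the tomatidine arrays, against 0.33, -0.75, -0.33 and 0.46 on the vehicle arrays. Tomatidine 1 and vehicle 2, the arrays with the strongest negative control signal, were the lowest of the 7. Of these 42 members 12, 37 and 40 were well above background on tomatidine arrays 1 to 3, against 40, 1, 13 and 38 on vehicle arrays 1 to 4. Vehicle 3 thus had about as few as tomatidine 1, although its negative control signal of 101.9 was not among the strong ones. On vehicle 2, 13 tested members and 105 members below the filter shared the same value of 3.46, the lower limit of that array's signal, so that they have no order there.

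Other genes of the worm's defence were set beside the family. Of 71 tested effectors that are no C-type lectins (lysozymes, saposin-like proteins, antimicrobial peptides and infection-response genes), 0 passed the adjusted threshold. At an unadjusted p under 0.05, 12 of these effectors were higher and 0 lower, where 0.752% of all genes tested were higher and 0.471% lower. The fold change was above 0 for 64 of the 71, with a median of 0.31. Of all genes tested, 45.3% were above 0. The smallest p was that of *nlp-32*, an antimicrobial peptide gene of the epidermis, whose log2 fold change was 2.30 with an adjusted p of 0.563. It was well above background on only 4 of the 7 arrays, and its vehicle values of 4.87, 3.54, 3.21 and 4.09 were low. *C17H12.8* followed at 1.27 and the saposin-like *spp-12* at 0.999. Of 27 tested regulators of immunity, among them the p38 kinase *pmk-1*, none passed either threshold, 11 were above 0 and the median was -0.05. Of the 12 galectins, sugar-binding proteins of another fold, none passed either threshold, 9 were above 0 and the median was 0.05.

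Marker genes of 8 tissues or cell types were measured in the same RNA, and 0 of them passed an unadjusted p of 0.05. The 12 intestine markers, all well above background on all 7 arrays, had a median log2 fold change of 0.17, with a mean centred level between -0.01 and 0.27 on the tomatidine arrays, against -0.41 and 0.30 on the vehicle arrays. The 19 germline and oocyte markers had a median of -0.07, between -0.31 and 0.31 on the tomatidine arrays, against -0.41 and 0.33 on the vehicle arrays. Medians were 0.15 for epidermis markers (8 of 10 listed were tested), 0.14 for body wall muscle markers (10 of 10), 0.11 for pharynx markers (6 of 10), 0.02 for neuron markers (9 of 10), 0.07 for sperm markers (12 of 16) and 0.07 for coelomocyte markers (2 of 3). The intestine, where several C-type lectins are made, had a median close to the family's 0.14, but those of body wall muscle and epidermis were closer. The part of any tissue in the family's values was not tested.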

How the data were processed

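Agilent 1-colour arrays were hybridised with Cy3-labelled cRNA of whole worms, 3 of tomatidine-treated and 4 of vehicle worms, and scanned; the authors' deposited intensity values (gProcessedSignal) were extracted per the file headers with Agilent Feature Extraction 11.5.1.1. The authors also deposited a value table of z-scores, one score per probe and array, from log-transformed intensities rounded to 2 decimals; these followed the log2 of the scanner signals (r above 0.99 on each array) and were used as an alternative. Control and outlier-flagged spots were left out, spots of a probe averaged, and each array's log2 values turned into z-scores and multiplied by the arrays' mean SD, 4.05. Probes called well above background on 3 or more arrays were retained, and where a gene had several, the one of highest mean was used. Of 43603 probes 34544 matched 1 gene by sequence name or accession in the RefSeq table (assembly WBcel235, used for names, chromosome and gene order only; the array was designed on another build, so no coordinates are given).

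All 14224 genes were fitted with limma 3.58.1 in R 4.3.3 (lmFit and eBayes with trend, 5 residual degrees of freedom, Benjamini-Hochberg, two-sided), a script tested on simulated data. Named genes were the members past either p threshold or not overlapping, the 4 highest and 4 lowest fold changes and the 6 widest ranges among those measured on all arrays, the pathogen-response list and the 2 runs with the most tested genes; other genes were named by smallest p, at most 3 a list. The members and lists were chosen with earlier results of these data known, and the counts within tag pairs and the median over members measured on all arrays were added after seeing the data. Alternatives covered scaling, background correction, filter, probe choice, blocks, the methods' t-test and each array left out. Over all 14224 genes, deviations from the group means correlated at 0.61, 0.19 and 0.51 within the pairs of arrays that share a name tag, all above 0.1. Arrays of different tags also did so in part (0.35 for tomatidine 2 with vehicle 1, above tomatidine 2's value with its tag partner, 0.35 for tomatidine 3 with vehicle 1 and 0.12 for tomatidine 1 with vehicle 3). The correlations were -0.53, -0.45 and -0.33 within pairs that share a title number. The tags were taken to pair the arrays, though what they stand for is not stated. Precision is limited by the number of arrays. Protein motifs and promoters were not analysed here.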

Additional observations from a re-analysis of the deposited data

Results flagged for a closer look

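Of the 121 C-type lectin genes below the filter, 99 were well above background on no array, 9 on arrays of both groups, 7 on vehicle arrays only and 6 on tomatidine arrays only. The 6 were outside every comparison above and had a signal in tomatidine-treated worms with 0 of 4 vehicle arrays well above background: *clec-70* and *clec-230* on 2 tomatidine arrays each, and *clec-6*, *clec-45*, *clec-78* and *clec-156* on 1 tomatidine array each. *clec-70*, a gene of the pathogen-response list that lies in the chromosome IV run between *clec-69* and *clec-71*, read 4.07, 6.13 and 5.59 on the tomatidine arrays, against 2.31, 3.46, 3.10 and 4.31 on the vehicle arrays. *clec-230* read 4.66, 4.99 and 4.76 on the tomatidine arrays, against 3.76, 3.46, 3.21 and 4.57 on the vehicle arrays. *clec-230* had 6 matched probes, none past the filter, and the values are of one with the most background calls. On that probe the groups did not overlap, with tomatidine 1 at 4.66 just above vehicle 4 at 4.57. With no filter on dim probes, 0.827% of all genes were higher with no overlap. In *clec-70* tomatidine 1, the lowest tomatidine array, lay below vehicle 4. These 6 were singled out for signal on tomatidine arrays only, so their values are a description and no test is given. The 7 members with the reverse were *clec-159* on 2 vehicle arrays and *clec-23*, *clec-44*, *clec-99*, *clec-129*, *clec-131* and *clec-243* on 1 vehicle array each.

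Dixon's criterion was applied to the 4 vehicle arrays for 44 results (the named members and the family means), and 0 exceeded the critical value for 4 samples, where chance passes about 1 in 20.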

How the results depend on the processing

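The family's median log2 fold change lay between 0.03 and 0.28 over the 20 alternatives, all on the same side of 0. The SD of the family mean between vehicle arrays was 0.29, larger than the family's median of 0.14. Lying within that SD therefore cannot show that the median was steady. Of 829 values of named members under the alternatives, 822 were labelled the same, 4 as moved, and 3, all of *clec-232*, passed the adjusted threshold. The 4 were *clec-26*, *clec-49* and *clec-74* with normexp and quantile normalization and *clec-36* with the mean of its probes. Among the values of the report's main results, 28 were labelled moved and 153 the same. For the members, the label does not list every large shift. With normexp and quantile normalization *clec-232* went from 1.81 to 0.63, *clec-233* from 0.85 to 0.35 and *clec-51* from 0.65 to 0.27, all labelled the same. No member passed the adjusted threshold in the comparison reported first, so none could change sign as a called value. With the name tags as a replicate block, members past the adjusted threshold numbered 1 in place of 0 and those at an unadjusted p under 0.05 numbered 12 in place of 7, with 23 in place of 11 genes called higher among all genes. With the title numbers as a block these were 1, 10 and 28, and 1 gene was called lower. With the slide as a block 4 members were at an unadjusted p under 0.05. Genes called higher among all genes numbered 5 when a probe had to be well above background on all 7 arrays, 6 without the trend in limma and 0 by the methods' t-test, by which 6 members were higher at an unadjusted p under 0.05 (0.605% of all genes). Without the pair of arrays with high background, tomatidine 1 and vehicle 2, 1 gene was called lower among all genes. In that setting 5 members were higher at an unadjusted p under 0.05, where 0.794% of all genes were. With no overlap, 14 members were higher and 3 lower in place of 4 and 0. Fewer arrays make such a count larger: in that setting 4.53% of all genes were higher and 5.25% lower with no overlap. With the 75th percentile as the scale 10 members were higher with no overlap (1.18% of all genes), and with normexp and quantile normalization 1 was lower (1.57% of all genes).

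Leaving out each array in turn gave 0 to 1 members past the adjusted threshold (1 without vehicle 4). At an unadjusted p under 0.05, 4 to 12 members were higher (4 without vehicle 1, 12 without vehicle 4), where 0.619% to 2.004% of all genes were. At that threshold 0 to 1 members were lower, namely *clec-165* without vehicle 3, its lowest array. The share of all genes lower in these fits is not given here, and with all 7 arrays it was 0.471%. With no overlap, 5 to 16 members were higher (1.301% to 4.17% of all genes) and 0 to 2 lower (2.34% to 5.39%). Genes called higher among all genes numbered 7 to 11. The cause of these differences was not tested. Members near background are limited by vehicle 2, whose lowest signals share 1 value.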
